A study of Mus musculus with 8 samples.

Results

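The 6 genes described here encode transcription factors of the POU class that are made in the embryonic forebrain, namely Pou2f1, Pou3f1, Pou3f2, Pou3f3, Pou3f4 and Pou6f1. They were chosen by symbol, and all 6 were listed among the 16913 genes of the authors' deposited table. RNA came from the lateral ganglionic eminence (LGE), the embryonic germinal zone and mantle of the striatum, at embryonic day 14.5 in mice of a mixed C57BL/6J and CD1 background. The 4 littermate control samples (Ctrl) were Dlx5/6-Cre;Meis2F/+, with Cre and 1 floxed allele of the homeobox gene Meis2. The 4 knockout samples (Meis2-CKO) were Dlx5/6-Cre;Meis2F/F, with the same Cre and 2 floxed alleles. The control therefore carried Cre and a floxed allele and was not a wild type, and the Dlx5/6 driver acts in Dlx-expressing cells of the ventral forebrain, so other cells in the dissection kept Meis2. The values are the authors' means per genotype with their fold change and p-value. They carry no spread between embryos and the depth is unknown. The table's values per library were not used, because their column names match no sample label.

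POU factors bind DNA through a bipartite domain, a POU-specific domain and a POU homeodomain joined by a linker, and many recognise an octamer sequence. In the developing brain the class III genes Pou3f1 to Pou3f4 act in neural progenitors and young neurons, often beside Sox factors on shared enhancers. Pou2f1 (Oct-1) is a widely expressed relative with a part in histone and small nuclear RNA transcription, and Pou6f1 (Brn-5) is found in many neurons of the central nervous system.

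The 4 Pou3f genes are close paralogs, so their sequences are shown first because they bear on whether reads can be assigned to 1 of them. In GENCODE M21 on GRCm38 each is a single-exon gene with 1 annotated transcript, whereas Pou2f1 has 18 annotated transcripts of up to 17 exons and Pou6f1 has 11 of up to 11 exons. The 90-base coding stretch with the highest identity between Pou3f3 and its 3 paralogs is printed for each gene from the GENCODE transcripts, 5′ to 3′, with capitals marking positions at which the 4 genes are not all the same.
Pou3f1: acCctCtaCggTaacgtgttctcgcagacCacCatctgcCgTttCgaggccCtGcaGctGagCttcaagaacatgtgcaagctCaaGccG
Pou3f2: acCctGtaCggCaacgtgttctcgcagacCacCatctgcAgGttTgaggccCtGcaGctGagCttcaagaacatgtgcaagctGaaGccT
Pou3f3: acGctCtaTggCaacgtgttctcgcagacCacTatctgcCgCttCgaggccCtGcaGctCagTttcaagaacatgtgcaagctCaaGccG
Pou3f4: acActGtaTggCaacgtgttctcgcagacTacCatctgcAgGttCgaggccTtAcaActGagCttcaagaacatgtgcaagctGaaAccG
These stretches lie on GRCm38 at chr4:124658544-124658633 (plus strand) for Pou3f1, chr4:22487148-22487237 (minus strand) for Pou3f2, chr1:42698181-42698270 (plus strand) for Pou3f3 and chrX:110815125-110815214 (plus strand) for Pou3f4, each inside the coding part of the single exon. Of the 90 positions 73 were the same in all 4 genes, and 15 of the others were the last base of a codon. Pairwise identity in the stretch ran from 85.6% between Pou3f3 and Pou3f4 to 92.2% for Pou3f1 with Pou3f2 and for Pou3f1 with Pou3f3. Even so, no 50-base word of the annotated transcripts of any of the 6 genes occurred in those of another, and the longest run shared by a pair was 43 bases, between Pou2f1 and Pou3f2. At a read length of 50 bases or more an exact read would thus match only 1 of these 6 genes. The sources used here do not give the read length.

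Overlap with other annotated genes is another limit on the values, because the strand used in counting is not stated. Pou2f1 shares 3007 of its 16597 exon bases (18.1%) with the T-cell receptor chain gene Cd247 on the opposite strand, which stood at authors' means of 3.25 in Ctrl and 4.39 in Meis2-CKO. Pou3f1 shares 330 of its 3849 exon bases (8.57%) with the antisense gene Gm2164. Pou3f2 and Pou3f4 overlap no other annotated gene, and Pou3f3 and Pou6f1 share no exon base with one.

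None of the 6 POU genes was called higher or lower after loss of Meis2. Pou3f1 had the largest difference, with a mean 73.6% of control, and the other 5 genes lay between 97.9% and 112% of control. Of the log2 fold changes 3 were above 0 and 3 below, while 9021 of all 16913 genes lay above 0. The threshold was a Benjamini-Hochberg adjusted p of 0.05 over all genes. By the p-values of the authors' deposited table it was passed by 132 genes in all (0.780%), of which 40 were higher (0.237%) and 92 lower (0.544%) in Meis2-CKO, and by 0 of the 6 POU genes. With genes of at least 300 nt of exon adjusted again the share of genes that passed was 0.310% (51 of 16451), and the POU count was still 0. At an unadjusted p under 0.05 the count was again 0 of 6, against 2.17% of all genes. The 6 unadjusted p-values ran from 0.155 to 0.969 in the authors' deposited table, where the median over all genes was 0.760, and all 6 shared an adjusted p that rounds to 1.0. A gene that did not pass is not shown to be unchanged. The smallest log2 fold change that passed in the whole of the authors' deposited table was 0.51 in size, that of Klhl13 (64.5 in Ctrl, 44.9 in Meis2-CKO), a gene named only for this. All 6 POU differences were smaller than that.

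**Figure D1:**
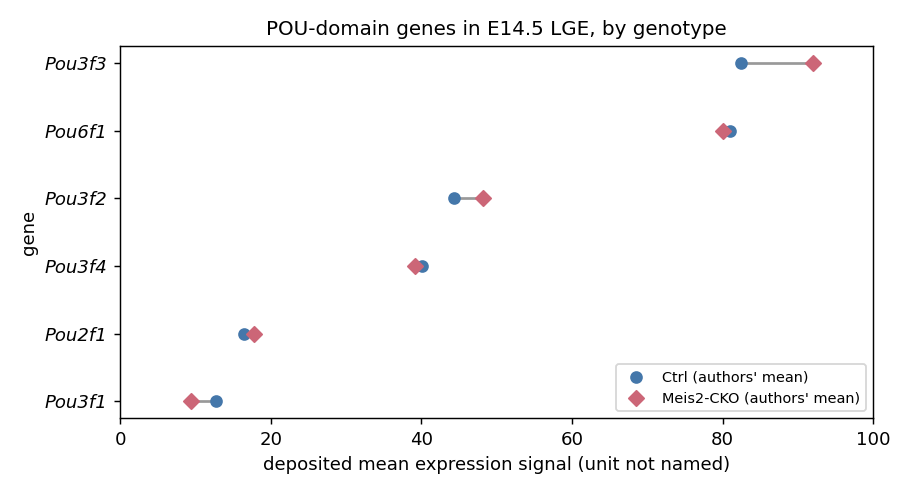
Authors' mean expression signal of each POU-domain gene (horizontal axis, deposited unit not named) in Ctrl (circles) and Meis2-CKO (diamonds), each a mean with no spread given. The order of the 6 genes is the same in both genotypes, from Pou3f1 at 12.8 and 9.39 to Pou3f3 at 82.4 and 92.0.

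Pou3f3 (Brn-1; ENSMUSG00000045515, chromosome 1, 42695768 to 42703176) and Pou3f2 (Brn-2; ENSMUSG00000095139, chromosome 4, 22482780 to 22488366) are known for overlapping functions in cortical progenitors and in the migration of upper-layer neurons. Pou3f3 had the highest mean of the 6 genes, 82.4 in Ctrl and 92.0 in Meis2-CKO, with a log2 fold change of 0.17 (p = 0.155) in the authors' deposited table. Pou3f2 stood at 44.4 in Ctrl and 48.2 in Meis2-CKO, with a log2 fold change of 0.13 (p = 0.376) in the authors' deposited table. Both thus had means slightly higher in the knockout, 112% and 109% of control, and neither passed. The ratio of Pou3f3 to Pou3f2 was 1.86 in Ctrl and 1.91 in Meis2-CKO.

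Pou3f4 (Brn-4; ENSMUSG00000056854, chromosome X, 110814280 to 110817207) is the X-linked member, known from inherited deafness and as a gene of embryonic striatal precursors. It stood at 40.0 in Ctrl and 39.2 in Meis2-CKO, with a log2 fold change of -0.019 (p = 0.908) in the authors' deposited table. Sex-linked genes also differed: by the authors' deposited table the Y-linked Eif2s3y, Ddx3y and Kdm5d fell (Kdm5d 13.1 in Ctrl and 4.09 in Meis2-CKO). Xist, the RNA that coats the inactive X, had means of 78.0 and 256 and did not pass (p = 0.0136, adjusted p = 0.985), and neither did the Y-linked Uty at 6.60 and 2.36 (adjusted p = 0.387), by the authors' deposited table. The labels give no sex, and the part of sex in the POU values was not tested. The mean of Pou3f4 was 97.9% of control beside that difference.

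Pou3f1 (Oct-6, SCIP; ENSMUSG00000090125, chromosome 4, 124656807 to 124660655) is known for its role in Schwann cell myelination and is also made by cortical neurons. It had the lowest mean of the 6 genes, 12.8 in Ctrl and 9.39 in Meis2-CKO, and the only log2 fold change beyond 0.2 in size, -0.43 (p = 0.163, adjusted p = 1.0) in the authors' deposited table. Among 7133 genes with a higher genotype mean of 10 to 100, which includes all 6 POU genes, the 90th percentile of the absolute log2 fold change was 0.21 and the median 0.07. Pou3f1 lay beyond that 90th percentile and the other 5 within it. It entered the set through its Ctrl mean of 12.8, near the lower limit, since its Meis2-CKO mean was 9.39. The percentile pools levels up to 100, so it does not give the scatter at the level of Pou3f1. In a dissected tissue, fewer cells that make a gene and less of its RNA per cell cannot be told apart.

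**Figure D2:**
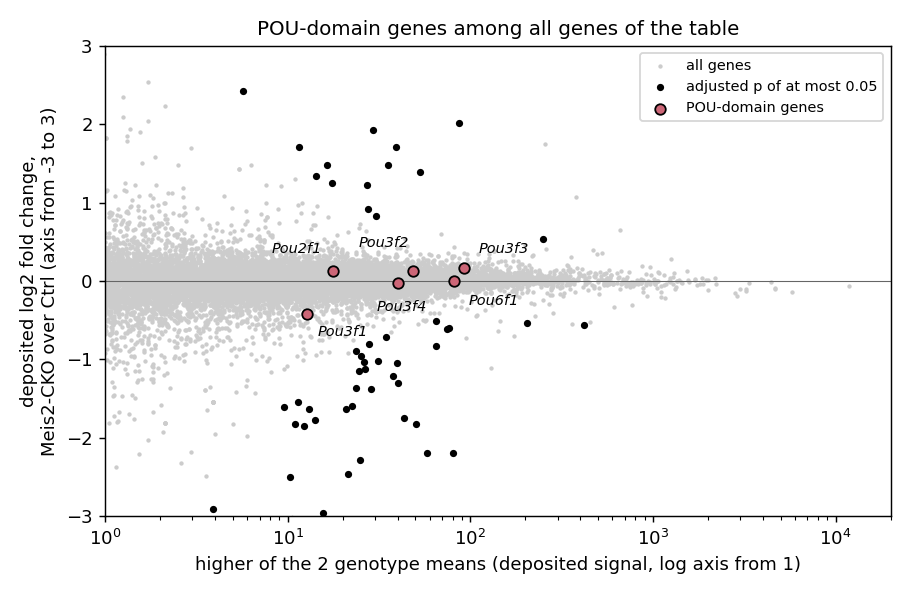
Deposited log2 fold change of Meis2-CKO over Ctrl (vertical axis, cut at both ends) against the higher of the 2 genotype means (horizontal log axis, shown from 1), with all genes in grey, genes of adjusted p of at most 0.05 in black and the POU-domain genes in red. Genes beyond these axes are not seen, many of the called genes among them, since their median absolute log2 fold change was 4.58. Pou3f1 at -0.43 sits toward the lower side of the grey points at its level, and the other 5 lie between -0.02 and 0.17.

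The summed signal of the 4 Pou3f genes was 180 in Ctrl and 189 in Meis2-CKO, 105% of control. Within that sum Pou3f3 made up 45.9% in Ctrl and 48.7% in Meis2-CKO, Pou3f2 24.7% and 25.5%, Pou3f4 22.3% and 20.8%, and Pou3f1 7.11% and 4.97%. The order of the 4 shares was the same in both genotypes, and Pou3f1, the smallest, had the largest relative difference. These shares are sums of deposited signal. The header names no unit, and the values behave closer to per-length than to per-gene values, since from the shortest to the longest of 5 bins of protein-coding genes the median exon length was 5.84 times longer and the median control mean 1.54 times higher. Levels of different genes are for that reason set beside each other as a description only.

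Outside class III, Pou6f1 (ENSMUSG00000009739, chromosome 15, 100575318 to 100599984) stood at 81.0 in Ctrl and 80.0 in Meis2-CKO, with a log2 fold change of -0.0047 (p = 0.969) in the authors' deposited table, the smallest difference of the 6. Pou2f1 (ENSMUSG00000026565, chromosome 1, 165865154 to 166002678), whose value may include Cd247 reads, stood at 16.5 in Ctrl and 17.8 in Meis2-CKO, with a log2 fold change of 0.12 (p = 0.614) in the authors' deposited table. In Ctrl, Pou3f3 and Pou6f1 were higher than 93.7% and 93.5% of all listed genes, Pou3f2 and Pou3f4 than 86.1% and 84.3%, and Pou2f1 and Pou3f1 than 65.0% and 58.9%. The order of the 6 genes was the same in both genotypes. Without a spread between embryos, neighbours in that order such as Pou3f3 and Pou6f1 in Ctrl (82.4 and 81.0) or Pou3f2 and Pou3f4 (44.4 and 40.0) cannot be said to differ.

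Of 9 further POU genes 1 could be described, Pou2f2 (Oct-2), a relative of Pou2f1 best known from B cells, at 6.30 in Ctrl and 6.01 in Meis2-CKO, with a log2 fold change of -0.05 (p = 0.896) in the authors' deposited table. The other 8 were sought by symbol and were not found among the listed genes.

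Pou3f3 lies between a pair of noncoding genes, Pantr1 (linc-Brn1a) and Pantr2 (linc-Brn1b). Pantr1 is transcribed away from Pou3f3 and its annotated start is 926 bases from that of Pou3f3, while Pantr2 lies 3885 bases beyond the end of Pou3f3 on the opposite strand. Pantr1 had the highest signal of the locus, 239 in Ctrl and 248 in Meis2-CKO, with a log2 fold change of 0.07 (p = 0.610) in the authors' deposited table. Pantr2 stood at 30.1 in Ctrl and 32.5 in Meis2-CKO, with a log2 fold change of 0.12 (p = 0.497) in the authors' deposited table. Pou3f3, Pantr1 and Pantr2 thus had slightly higher means in the knockout, and none passed. A further annotated gene, AC122898.1, overlaps the spans of Pou3f3 and Pantr2 without sharing an exon base, and it stood lower, at 3.86 in Ctrl and 3.13 in Meis2-CKO (log2 fold change -0.28, p = 0.593), in the authors' deposited table. Pantr1 signal was 2.90 times that of Pou3f3 in Ctrl and 2.70 times in Meis2-CKO.

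**Figure D3:**
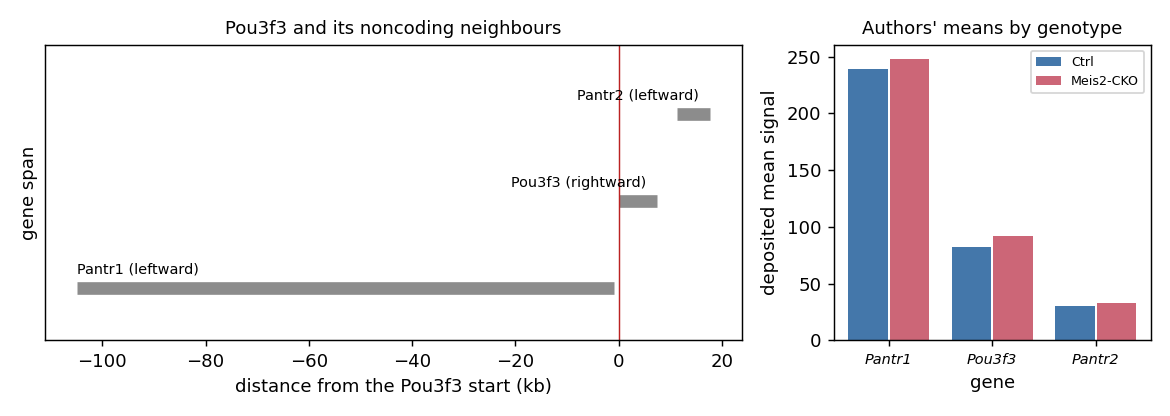
Left, spans of Pantr1, Pou3f3 and Pantr2 by distance from the annotated Pou3f3 start in kb, with the direction of transcription. Right, authors' mean signal per gene in Ctrl and Meis2-CKO (bars, no spread given), where Pantr1 stands at 239 and 248, Pou3f3 at 82.4 and 92.0 and Pantr2 at 30.1 and 32.5.

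The start of Pou3f3 therefore faces that of Pantr1, and its upstream sequence is printed with that of Pou3f2, the paralog nearest to it in known function. The 250 bases before the RefSeq start (GRCm38.p6) are chr1:42695518-42695767, plus strand, for Pou3f3 and chr4:22488367-22488616, minus strand, for Pou3f2, written 5′ to 3′ with the CCAAT box in capitals.
Pou3f2: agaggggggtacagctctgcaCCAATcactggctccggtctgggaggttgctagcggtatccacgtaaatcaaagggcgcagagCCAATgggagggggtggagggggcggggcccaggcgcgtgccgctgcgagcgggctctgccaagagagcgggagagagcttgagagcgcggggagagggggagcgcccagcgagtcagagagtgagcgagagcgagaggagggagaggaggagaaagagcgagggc
Pou3f3: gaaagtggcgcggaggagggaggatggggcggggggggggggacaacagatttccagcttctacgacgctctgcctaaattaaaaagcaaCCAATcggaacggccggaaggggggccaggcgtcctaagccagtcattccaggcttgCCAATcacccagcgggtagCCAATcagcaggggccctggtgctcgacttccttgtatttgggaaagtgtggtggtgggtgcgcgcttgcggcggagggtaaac
The letters CCAAT, on either strand, began 160, 103 and 84 bases before the Pou3f3 start and 229 and 166 bases before that of Pou3f2. In the RefSeq promoter windows of 300 bases (250 before and 50 after the start), Pou3f3 and Pou3f4 each held 3 such matches and Pou3f2 held 2, while the windows of Pou2f1 (3 starts) and Pou6f1 held 0. Of 32851 windows of that length 37.4% held at least 1 match. No window was matched to Pou3f1, so these searches do not cover it. The octamer ATGCAAAT, sought on both strands, was in none of the other members' windows and in 1.74% of all windows. The letters TGACAG, the core of the site that MEIS proteins bind, were found on either strand once in the Pou3f3 window, in the 50 bases after the start, and in 19.2% of all windows. GC content was 60.3% in the Pou3f3 window, 67.7% for Pou3f2, 57.7% for Pou3f4 and 70.3% for Pou6f1, against a median of 52.7% over all windows. The 3 Pou2f1 windows, 1 for each RefSeq start, ran from 28.7% to 69.7%, and 2 of them lay below that median. These matches describe letters in a short window and say nothing of binding.

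Genes listed as partners of POU factors gave no call. Of 12 genes taken from the Sox family, some of which bind beside POU proteins on neural enhancers, all were listed and 0 passed. A log2 fold change above 0 was seen in 10 of them, and in 9021 of the 16913 genes of the whole table. The median was 0.14 against 0.01 over all genes. Sox2, the partner on the nestin enhancer, stood at 121 in Ctrl and 142 in Meis2-CKO (log2 fold change 0.24, p = 0.0547) in the authors' deposited table. Sox8 had the smallest p of the list and, with Sox10, was below 0, at 29.3 in Ctrl and 19.6 in Meis2-CKO (log2 fold change -0.57, p = 0.00603, adjusted p = 0.521) in the authors' deposited table.

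Of 13 genes known as POU-factor targets in neural cells 11 were listed, 8 lay above 0 and 3 below, and 0 passed, with a median log2 fold change of 0.14. Nes, the progenitor intermediate filament gene, stood at 104 in Ctrl and 126 in Meis2-CKO (log2 fold change 0.29, p = 0.0123, adjusted p = 0.918) in the authors' deposited table. The summed signal of the target list was 1317 in Ctrl and 1463 in Meis2-CKO, 111% of control. Fabp7 alone made up most of that sum, at 860 in Ctrl and 968 in Meis2-CKO, so the sum mainly follows 1 gene.

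Among 14 coactivators and corepressors 11 were listed, 7 above 0, and 0 passed, with a median log2 fold change of 0.07. Ep300, a histone acetyltransferase gene, stood at 28.1 in Ctrl and 32.7 in Meis2-CKO (p = 0.210), and Ncor1, a corepressor gene, at 82.8 and 90.5 (p = 0.224), in the authors' deposited table. Of 9 proneural and reprogramming partners 8 were listed, 7 above 0, and 0 passed, with a median of 0.20. Neurog2, a proneural gene of the pallium, stood at 19.2 in Ctrl and 27.4 in Meis2-CKO (log2 fold change 0.52, p = 0.0155, adjusted p = 1.0) in the authors' deposited table. Myt1l, a zinc-finger gene used together with Pou3f2 to convert fibroblasts to neurons, stood at 28.2 and 22.3 (log2 fold change -0.32, p = 0.113) in the authors' deposited table and was the 1 member of the list below 0. The mean of Pou3f2 was thus higher and that of Myt1l lower in the knockout, neither past the threshold.

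**Figure D4:**
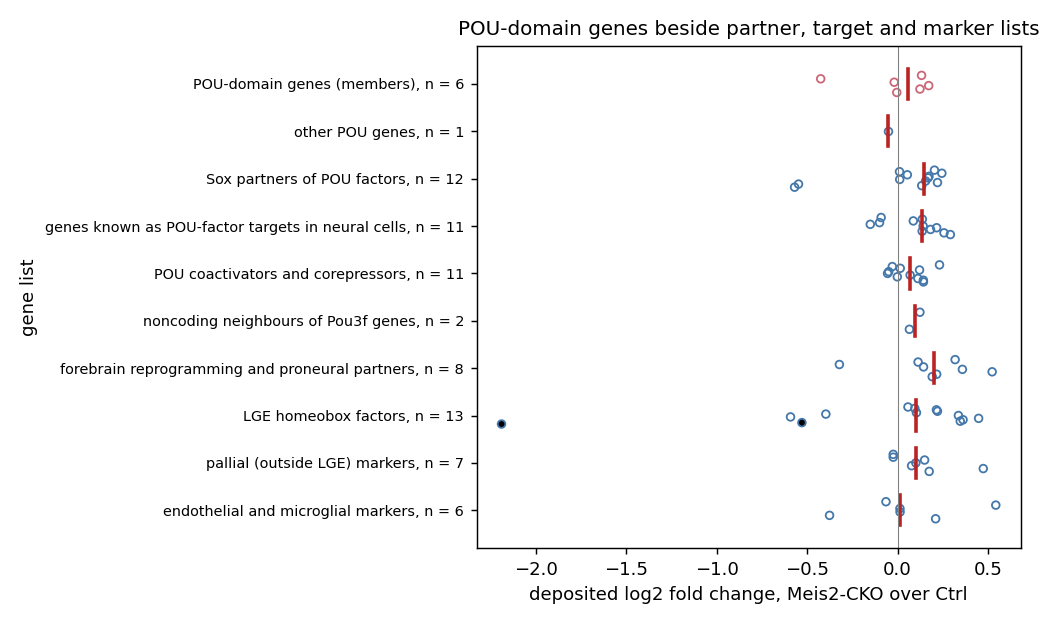
Deposited log2 fold change of Meis2-CKO over Ctrl (horizontal axis) for each listed gene of the POU-domain set and of 9 partner, target and marker lists, with red bars at list medians and filled points for genes of adjusted p of at most 0.05. The POU genes run from -0.43 to 0.17 with a median of 0.06, and the filled points are Isl1 and Meis2.

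The list of LGE homeobox genes held calls, beside 0 of the 6 POU genes and 0.780% of all genes. Of 13 such genes 2 passed, both lower: Isl1, a LIM homeobox gene of direct-pathway striatal neurons, at 57.9 in Ctrl and 12.5 in Meis2-CKO, and Meis2 itself at 204 and 140 (log2 fold change -0.53, adjusted p = 0.00195), in the authors' deposited table. Meis2 is the gene deleted by design, which leaves Isl1 as the only call among the other genes of this list. Whether the POU list and this list differ was not tested. The LGE markers Dlx1, Dlx2, Gsx2 and Six3 were present in both genotypes. Means in Meis2-CKO were higher for Dlx1, Dlx2 and Gsx2 (Gsx2 20.9 and 24.2) and lower for Six3 (25.5 and 16.7), and none of these passed. Pallial markers, from tissue outside the LGE in which Pou3f2 and Pou3f3 are also made, were present too: 7 of 7 were listed, 5 above 0, none passed, and their summed signal was 147 in Ctrl and 161 in Meis2-CKO, 109% of control. Tbr1 stood at 35.6 and 37.9 and Eomes at 13.2 and 18.2. None of the pallial markers was at 0, and their part in the POU values was not tested. The 6 endothelial and microglial markers had a summed signal of 47.1 and 48.6, with 0 calls and a median log2 fold change of 0.01.

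By distance between the pairs of log2 genotype means, over 2 means and 80 other genes of the fixed lists, Pou3f3 lay nearest to Ncor1 (distance 0.02), and Pou3f2 to Sox12 (0.10). Pou3f4 lay nearest to Dll1 (0.12) and Neurod2 (0.13), Pou6f1 had Ncor1 as 1 of its 2 nearest genes (0.18), and Pou2f1 lay nearest to Hcfc2 (0.09) and Sox9 (0.10). Pou3f1 had no close neighbour among these 80 genes, the nearest being Slc17a6 (0.56) and Snapc5 (0.57). Genes outside the fixed lists were not searched. The measure describes level and difference in these means only.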

How the data were processed

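RNA-seq of LGE from 4 Ctrl and 4 Meis2-CKO samples was deposited as 1 table of 16913 genes. The mean expression signal per genotype was computed by the authors, per the file headers, which name no unit. The log2 fold change (Meis2-CKO over Ctrl), the p-value and the adjusted p were computed by the authors and deposited with the means. Recomputing the Benjamini-Hochberg values from the p-values over all 16913 genes gave the deposited adjusted p, and the log2 fold change exceeds the log2 ratio of the means by a median of 0.01. FastQC 0.11.5, HISAT2 2.1.0, StringTie 1.3.1 and the builds GRCm38.p2 and mm10 are named in the submitters' processing notes without roles, and no source used here names the tool behind the p-values. The labels do not say whether samples of a genotype are separate embryos or pools, so the p-values measure the spread between samples at most.

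The table has 8 further per-library columns whose names match no sample label. They were not used, so no test across embryos, replicate block or omission of a sample was run, although these had been planned for the case that names matched. Values of these columns were seen in 1 line when the table was opened, and no mapping was drawn. Without a known depth there is no interval and no detection floor.

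The members and the gene lists were chosen with earlier results of these data known. Genes named are the 6 members, every other listed POU gene, and of each list at most 3 past the threshold or else the 2 with the smallest p, plus the 2 genes nearest each member, and the results for some of these genes are not reported here. Dlx1, Dlx2, Gsx2 and Six3 are named as LGE markers. Myt1l, Sox10, Fabp7, Klhl13, Xist, Uty, Cd247, Gm2164, AC122898.1 and the promoter motifs other than the octamer were chosen after values were seen. Gene places and exons came from GENCODE M21 (GRCm38), matched by Ensembl ID for 16861 genes. Promoters came from RefSeq (GRCm38.p6), which matched 5 of the 6 members by symbol, all but Pou3f1. Protein identity had been planned and was not computed here. The adjustment code was tested on simulated data. Alternatives were the Benjamini-Yekutieli adjustment, a minimum mean of 1, a minimum fold change of 1.5, a minimum exon length of 300 nt, a threshold of 0.1, a pseudocount of 1, the plain ratio of means and median centring. Python 3.11.15 was used with matplotlib 3.10.9, scipy 1.17.1, pandas 2.3.3 and numpy 2.4.6.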

Additional observations from a re-analysis of the deposited data

How the results depend on the processing

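The count of POU genes called was 0 of 6 under each of the 5 planned adjustments and filters and under 1 added after the data were seen, which kept only genes with a higher mean of 10 to 100. This outcome was fixed beforehand. The smallest unadjusted p of the 6 was 0.155, above both thresholds used (0.05 and 0.1), and adjustment never lowers a p-value. These settings therefore do not test how firm the count is. The count over all genes went from 132 to 51 when genes of at least 300 nt of exon were adjusted again. That filter kept 16451 of the 16913 genes, so the 0.780% share depends strongly on the few short or unmatched genes left out. Under the added filter the count was 67 of 7133 genes, of which 65 had passed in the main setting. All 18 recomputed log2 fold changes of the 6 POU genes (a pseudocount of 1, the plain ratio of means, centring on the median of all genes) kept their sign, and that of Pou3f1 ran from -0.44 to -0.41. The values ran from -0.031 to -0.019 for Pou3f4 and from -0.018 to -0.0047 for Pou6f1, too near 0 to give a direction. No paired analysis was possible because the per-library columns carry no names that match the labels, and no sample could be left out for the same reason. The unknown depth and the missing spread between embryos limit every statement here: a change of the size seen for Pou3f1 cannot be judged from genotype means.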
